A study of Macaca mulatta with 10 samples.

Results

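Integrins, laminins and collagens were followed through the differentiation of a macaque embryonic stem cell line. The genes were taken by their annotated symbol, which starts with ITGA, ITGB, LAMA, LAMB or LAMC, or with COL and a digit, and the type I and III chains COL1A1, COL1A2 and COL3A1 were left out. This gave 62 of the 13191 genes with a value, read by 115 of the 44210 tested probe sets of an Affymetrix rhesus macaque array. ITGA5, LAMA5, LAMB3, COL4A1, COL4A2, COL5A1 and COL17A1 are not analysed here, as no probe set was assigned to them alone. The members comprise 20 integrin chains, 9 laminin chains, 30 collagen chains and 3 genes that are named after an integrin without encoding a chain. RNA came from cultures of ORMES6, a single rhesus macaque embryonic stem (ES) cell line, in 5 groups of 2 arrays. The ES group was undifferentiated and grew on mouse embryonic fibroblast feeders in serum replacement with basic fibroblast growth factor. The other groups had been co-cultured with hESdF, fibroblast-like cells derived from human ES cells, to induce hepatic foci. They were whole cultures at in vitro differentiation stage 2 (IVDS2), the central foci of colonies at that stage (IVDS2-C), the peripheral area of those colonies (IVDS2-P), and cultures at stage 3 (IVDS3). The cells that ORMES6 was grown with thus differed between the ES group and all others. In comparisons with ES cells, this difference cannot be told apart from differentiation. Whether RNA of feeder or co-cultured cells was in the samples was not tested. The labels do not say whether the 2 arrays of a group came from separate cultures. The p-values therefore measure the spread between these samples, which may be technical.

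Integrins are receptors made of an alpha and a beta chain that tie the cytoskeleton to the extracellular matrix, and the pairing decides which ligand is bound. Laminins are trimers of an alpha, a beta and a gamma chain and build, together with type IV collagen, the basement membrane under epithelia. Other collagens form fibrils, sit on their surface, make beaded microfibrils, or anchor the basement membrane to the tissue below. Liver epithelium rests on little classical basement membrane, whereas stratified epithelia hold on to theirs through the integrin pair of ITGA6 and ITGB4 in hemidesmosomes.

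Values are log2 expression relative to the median of each probe set over the 10 arrays, averaged over the probe sets of a gene, so they show how arrays differ and not how abundant a transcript was. Calls rest on limma with Benjamini-Hochberg adjustment over all genes in each of 6 comparisons, at 0.05, and errors are standard errors (SE) of the fit with 2 arrays per group. In such bulk samples, fewer cells of a type and less RNA per cell cannot be told apart. The mean of 7 measured ES cell markers was 1.42 and 1.62 in ES cells, between -1.30 and 0.80 on the 6 arrays of stage 2, and -2.12 and -2.09 in IVDS3. In IVDS3 against ES cells, 5 of the 7 were called lower, where 28.6% of all genes were, and ZFP42 was not called. NANOG went the other way and rose there (1.48 ± 0.19, adjusted p = 0.00026). It was also called higher in IVDS2 (1.04 ± 0.19), IVDS2-C (1.30 ± 0.19) and IVDS2-P (0.83 ± 0.19, adjusted p = 0.0299). The NANOG calls in IVDS2 and IVDS2-P failed without single arrays, and the IVDS2-P change then lay between 0.49 and 1.16. The mean of 6 stratified epithelial markers was -0.69 and -0.65 in ES cells, between -0.60 and 1.10 at stage 2, and 4.25 and 4.01 in IVDS3. That of 11 fibroblast markers, listed for feeder or co-cultured cells, was -0.09 and -0.12 in ES cells, between -0.25 and 0.23 at stage 2, and 1.63 and 1.37 in IVDS3. The 3 measured hepatocyte markers (AFP, APOB and SERPINA1) averaged between -0.29 and 0.16 on all arrays, and AFP (-0.64 ± 0.12, adjusted p = 0.0022) and APOB (-0.48 ± 0.15, adjusted p = 0.0288) were called lower in IVDS3 than in ES cells. The APOB call failed without single arrays, and its change then lay between -0.65 and -0.3. Whether a marker was present or absent cannot be read from centred values.

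Members moved in both directions, and their spread between arrays was uneven. The range of a gene over the 10 arrays had a median of 1.13 over the members, from 0.23 (ITGB3) to 4.54 (ITGA2), against a median of 0.77 over all genes, and 22 of the 62 members lay below that median. Against ES cells, 10 of 62 members rose and 9 fell in IVDS2, where 6.5% and 6.23% of all genes did. In IVDS2-C, 15 rose and 8 fell, with 13.7% and 16.5% of all genes. In IVDS2-P, 8 rose and 6 fell, with 6.31% and 4.67% of all genes. In IVDS3, 19 rose and 12 fell, with 21.1% and 28.6% of all genes, so the share of all genes called there was close to that of the members. These 4 comparisons share the ES arrays. In the colony centre, 9 members were higher and 2 lower than in the periphery, where 5.64% and 3.95% of all genes were called. IVDS3 had 19 members higher and 14 lower than IVDS2, with 17.6% and 22.2% of all genes. As a share of members, the higher calls came to 16.1% (IVDS2), 24.2% (IVDS2-C), 12.9% (IVDS2-P) and 30.6% (IVDS3) against ES cells, 14.5% for centre against periphery and 30.6% for IVDS3 against IVDS2. The median log2 fold change of the members lay between -0.08 and 0.05 in the 6 comparisons, and that of all genes between -0.13 and -0.03.

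**Figure D1:**
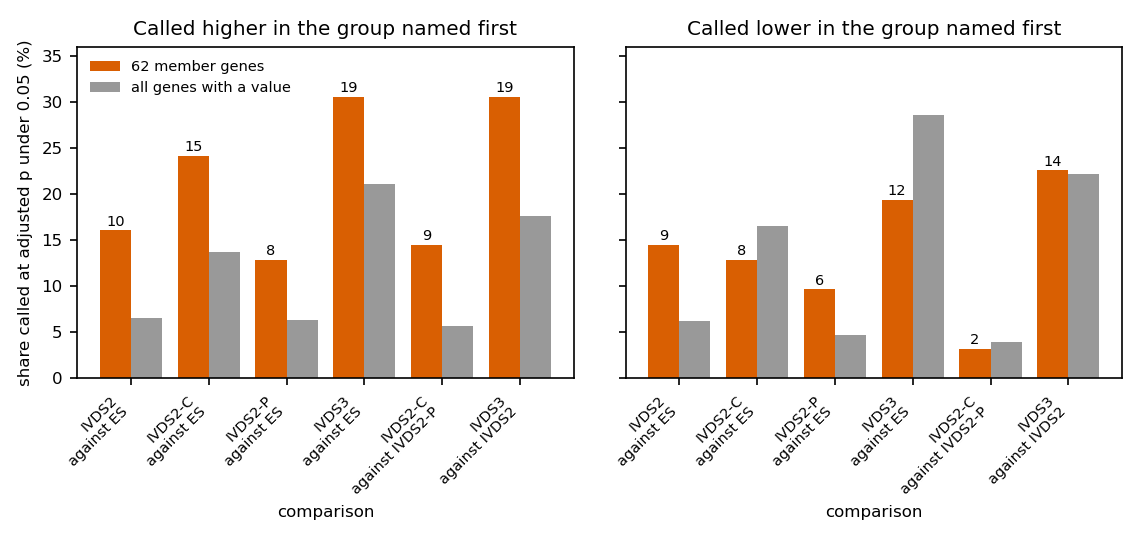
Share of the 62 member genes (orange) and of all 13191 genes (grey) called higher (left) or lower (right) in the group named first, in percent, with the number of members above each orange bar. The orange bar stands above the grey one in all 6 comparisons for higher calls, and for lower calls in IVDS2 and IVDS2-P against ES and, by 22.6% to 22.2%, in IVDS3 against IVDS2.

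Single arrays moved several of these counts by more than 1.5 times. The members that fell in IVDS2 numbered 4 without ES array 2, 4 without IVDS2 array 1 and 2 without IVDS2 array 2. Those that fell in IVDS2-C numbered 4 without ES array 2, 5 without IVDS2-C array 1 and 3 without IVDS2-C array 2. In IVDS2-P, 4 rose without ES array 2 and 3 without IVDS2-P array 2. The falls there numbered 10 without ES array 1, 3 without ES array 2 or either IVDS3 array, and 2 without either IVDS2-P array. Higher calls in the centre against the periphery numbered 4 without IVDS2-C array 2 and 3 without IVDS2-P array 1. Both lower calls there were lost without either of these arrays, and 1 remained without IVDS2-P array 2 or either IVDS3 array. Of the called members, 8 of 19 kept their call whichever array was left out in IVDS2, 12 of 23 in IVDS2-C, 5 of 14 in IVDS2-P, 20 of 31 in IVDS3, 2 of 11 between centre and periphery, and 24 of 33 between IVDS3 and IVDS2.

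**Figure D2:**
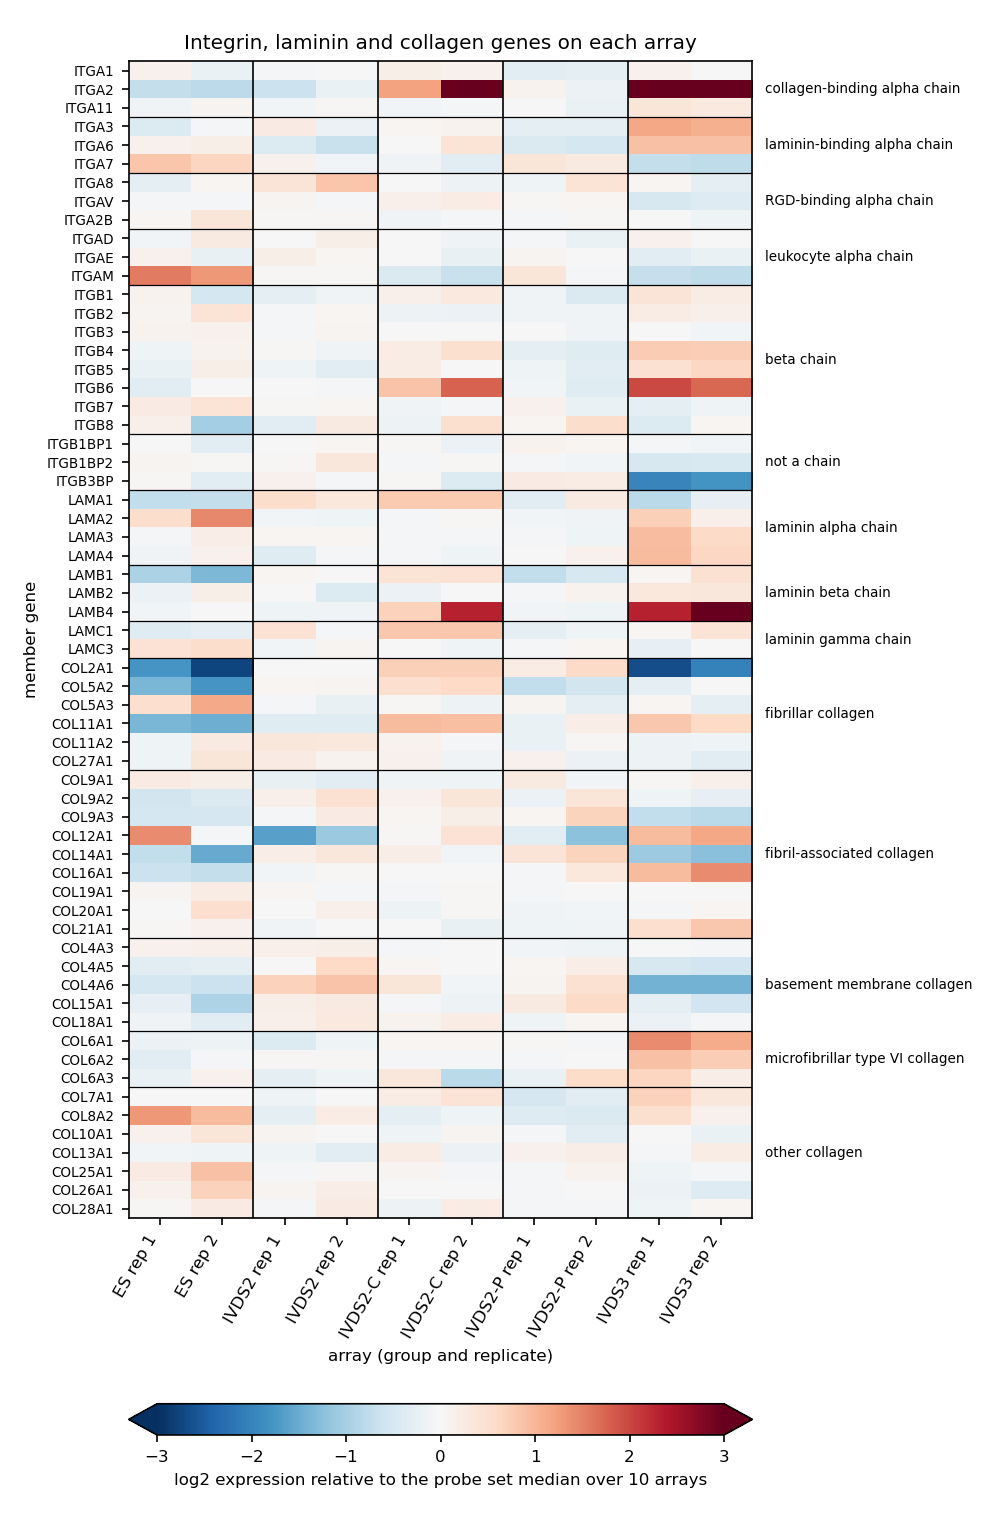
Values of the 62 members (rows, grouped by the kind of chain) on each of the 10 arrays (columns, by group and replicate), as log2 expression relative to the median over the arrays. Blue is low and red is high, with the colours saturating at 3 in either direction. ITGA2, LAMB4 and ITGB6 are red in IVDS2-C and IVDS3, whereas COL2A1 is blue in ES cells and IVDS3.

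Among the collagen-binding integrin chains, ITGA2 had the largest change of all members. It pairs with ITGB1 to form a receptor for fibrillar collagen on epithelial cells and platelets. ITGA2 read -0.72 and -0.78 in ES cells, -0.64 and -0.20 in IVDS2, 1.20 and 3.16 in IVDS2-C, 0.11 and -0.17 in IVDS2-P, and 3.76 and 3.56 in IVDS3. The IVDS3 arrays were highest, the centre arrays came next and lay far apart from each other, and the ES, IVDS2 and IVDS2-P arrays stayed below both. ITGA2 rose in IVDS3 against ES cells (log2 fold change 4.41 ± 0.49 SE, 21.2-fold higher, adjusted p = 0.000101) and against IVDS2 (4.08 ± 0.49, adjusted p = 0.00025). It rose in IVDS2-C against ES cells by 2.93 ± 0.49 (adjusted p = 0.00262), and leaving out any array kept all 3 calls. Its call for centre against periphery (2.21 ± 0.49, adjusted p = 0.0266) was lost without either of the IVDS2-P arrays (adjusted p = 0.107 and 0.122). In IVDS2 (0.33 ± 0.49, adjusted p = 0.729) and IVDS2-P (0.72 ± 0.49, adjusted p = 0.356) it was not called against ES cells with all arrays, though IVDS2-P was called without either of the IVDS2-C arrays (adjusted p = 0.0369). Both of its probe sets were called higher in IVDS3, with log2 fold changes of 5.19 ± 0.51 and 3.63 ± 0.49. The other collagen-binding chains changed little. ITGA11, a receptor of mesenchymal cells for fibrillar collagen, read 0.37 and 0.30 in IVDS3 and -0.11 and 0.09 in ES cells. Its call (0.35 ± 0.12, adjusted p = 0.0396) was lost without ES array 1, either of the IVDS2 arrays, either of the IVDS2-C arrays, or either of the IVDS3 arrays (adjusted p from 0.0514 up to 0.16). ITGA1 was called in none of the 6 comparisons, and stood 0.46 ± 0.11 higher in the centre than in the periphery (adjusted p = 0.055).

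The laminin-binding chains separated into ITGA3 and ITGA6, which rose in IVDS3, and ITGA7, which fell. ITGA3, which pairs with ITGB1 in the basal adhesion of epithelia, read -0.41 and -0.06 in ES cells, 0.25 and -0.17 in IVDS2, 0.06 and 0.10 in IVDS2-C, -0.29 and -0.28 in IVDS2-P, and 1.16 and 1.07 in IVDS3. The IVDS3 arrays lay above all other arrays, and the change against ES cells was 1.35 ± 0.16 (adjusted p = 0.000146). ITGA6, which pairs with ITGB1 or ITGB4, read 0.12 and 0.18 in ES cells, -0.41 and -0.66 in IVDS2, 0.01 and 0.41 in IVDS2-C, -0.43 and -0.52 in IVDS2-P, and 0.88 and 0.89 in IVDS3. It stood lowest in IVDS2 and IVDS2-P and highest in IVDS3, with the ES and centre arrays between them. ITGA6 fell in IVDS2 (log2 fold change -0.68 ± 0.15 SE, 1.6-fold lower, adjusted p = 0.0184), a call that failed without ES array 2 or IVDS2 array 2 (adjusted p = 0.0744 and 0.129). It fell in IVDS2-P (-0.62 ± 0.15, adjusted p = 0.0307), lost without ES array 2, either of the IVDS2-P arrays, or either of the IVDS3 arrays (adjusted p from 0.0571 up to 0.182). In IVDS3 it rose against ES cells (0.73 ± 0.15, adjusted p = 0.00308) and against IVDS2 (1.41 ± 0.15, adjusted p = 0.000121), and both calls held whichever array was left out.

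ITGB4, the beta chain that joins ITGA6 in hemidesmosomes, rose with it in IVDS3. ITGB4 read -0.14 and 0.10 in ES cells, 0.03 and -0.11 in IVDS2, 0.23 and 0.48 in IVDS2-C, -0.26 and -0.37 in IVDS2-P, and 0.77 and 0.74 in IVDS3. The IVDS3 arrays were highest and the periphery arrays lowest. It rose in IVDS3 against ES cells (log2 fold change 0.77 ± 0.13 SE, 1.71-fold higher, adjusted p = 0.00111) and against IVDS2 (0.80 ± 0.13, adjusted p = 0.00137), whichever array was left out, and had 0.38 ± 0.13 in IVDS2-C against ES cells (adjusted p = 0.057), which passed without ES array 2 or IVDS2-C array 1 (adjusted p = 0.0375 and 0.0483). ITGA7, the laminin receptor chain of muscle, ran the other way and read 0.83 and 0.64 in ES cells, 0.12 and -0.09 in IVDS2, -0.10 and -0.33 in IVDS2-C, 0.36 and 0.27 in IVDS2-P, and -0.71 and -0.77 in IVDS3. ES arrays were highest and IVDS3 arrays lowest, with the stage 2 arrays between them. It fell in IVDS3 (log2 fold change -1.48 ± 0.13 SE, 2.79-fold lower, adjusted p = 2.75e-05), in IVDS2-C (-0.95 ± 0.13, adjusted p = 0.000919) and in IVDS2 (-0.72 ± 0.13, adjusted p = 0.00702), the last of which was lost without IVDS2 array 2 (adjusted p = 0.0613). Against IVDS2 it fell by 0.75 ± 0.13 in IVDS3 (adjusted p = 0.00171). Of its 3 probe sets, 2 were called lower in each of these comparisons and the other one was not called. That one read -0.17 and -0.74 in ES cells and -0.02 and -0.03 in IVDS3. Its change against ES cells was 0.42 in IVDS3 and 0.46 in IVDS2-C.

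**Figure D3:**
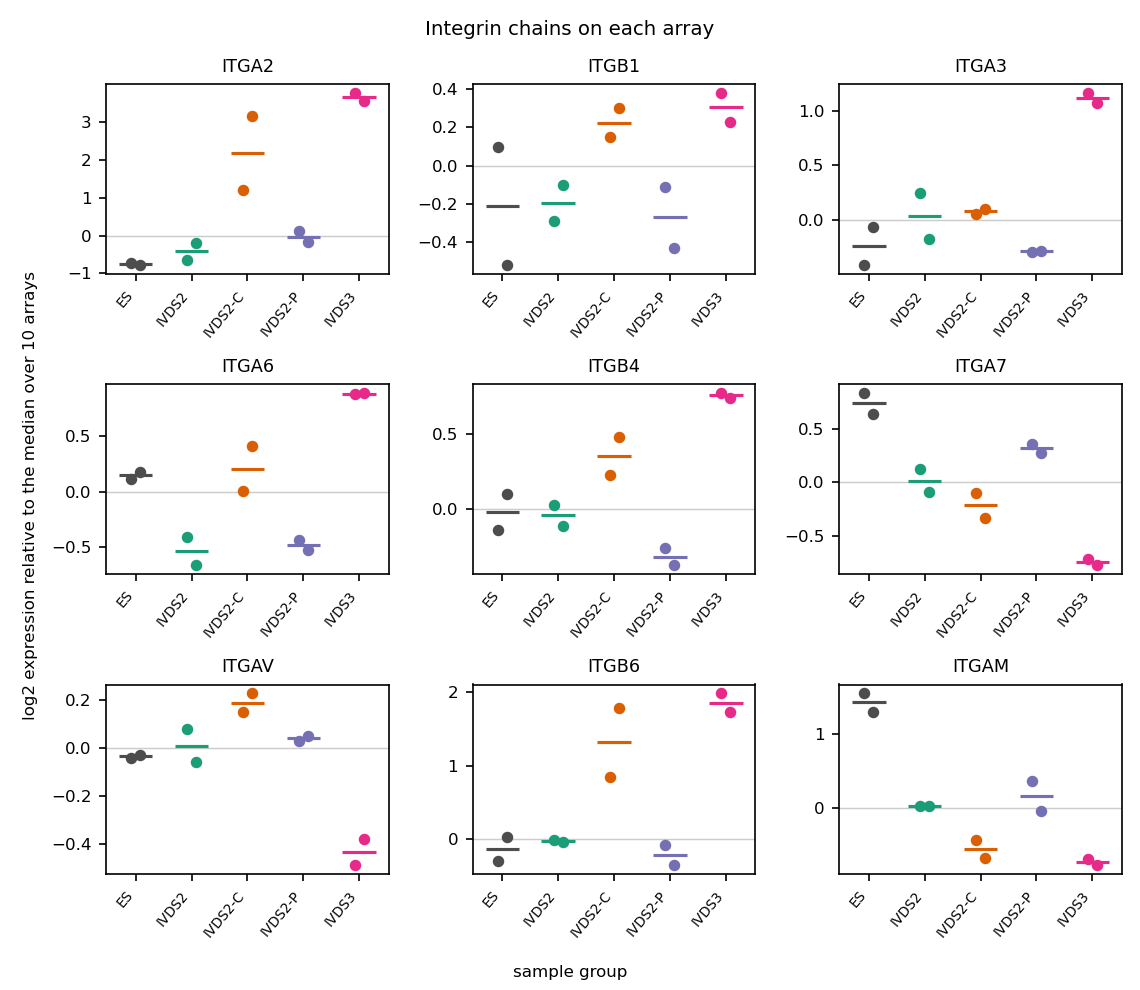
Integrin chains on each array, as log2 expression relative to the median over 10 arrays, with a panel per gene and its own scale. Points are the 2 arrays of a group and the bar is their mean. ITGA2 and ITGB6 are higher on both centre arrays than on either periphery array, and the IVDS3 arrays of ITGAV, ITGA7 and ITGAM lie below all ES arrays.

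ITGB6 rose in the colony centre and at stage 3. It pairs with ITGAV alone, is known from epithelia, and frees latent TGF-beta from its complex. ITGB6 read -0.31 and 0.02 in ES cells, -0.02 and -0.04 in IVDS2, 0.85 and 1.78 in IVDS2-C, -0.08 and -0.36 in IVDS2-P, and 1.99 and 1.73 in IVDS3. Centre and IVDS3 arrays lay above all others, and the centre arrays lay apart from each other. It rose in IVDS3 (log2 fold change 2.00 ± 0.27 SE, 4.01-fold higher, adjusted p = 0.000276) and in IVDS2-C (1.46 ± 0.27, adjusted p = 0.00406) whichever array was left out. Its call for centre against periphery (1.53 ± 0.27, adjusted p = 0.00956) was lost without IVDS2-P array 2 (adjusted p = 0.0665). Its partner ITGAV, shared by several beta chains, read -0.49 and -0.38 in IVDS3 and -0.04 and -0.03 in ES cells and fell by a smaller amount (-0.40 ± 0.10, adjusted p = 0.0108), a call that failed without IVDS3 array 1 (adjusted p = 0.0769). ITGB5, another partner of ITGAV, rose against IVDS2 (0.76 ± 0.16, adjusted p = 0.0051) and against ES cells (0.55 ± 0.16, adjusted p = 0.019), a call against ES cells that was lost without ES array 1 or IVDS3 array 2 (adjusted p = 0.0979 and 0.114).

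The other integrin chains that bind the RGD motif, and ITGB1, which pairs with most alpha chains, were not called against ES cells. ITGB1 is read by 1 probe set and stood at 0.10 and -0.52 in ES cells, -0.29 and -0.10 in IVDS2, 0.15 and 0.30 in IVDS2-C, -0.11 and -0.43 in IVDS2-P, and 0.38 and 0.23 in IVDS3. The ES arrays bracketed those of IVDS2, and the IVDS3 difference from ES cells was 0.52 ± 0.17 (adjusted p = 0.0606), which passed without ES array 1 (adjusted p = 0.00588). ITGB8 read 0.15 and -1.02 in ES cells and its log2 fold changes against ES cells were between 0.26 and 0.72, none called. ITGB3 and ITGA2B, the chains of the platelet fibrinogen receptor, had ranges of 0.23 and 0.49 over the 10 arrays. ITGA8 was called once, lower in IVDS3 than in IVDS2 (-0.71 ± 0.22, adjusted p = 0.0327), a call that failed without IVDS2 array 2 or IVDS3 array 2 (adjusted p = 0.208 and 0.189).

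Of the chains known from leukocytes, ITGAM fell throughout. ITGAM, the alpha chain of the phagocyte integrin Mac-1, is read by 1 probe set and stood at 1.55 and 1.30 in ES cells, 0.03 and 0.03 in IVDS2, -0.43 and -0.67 in IVDS2-C, 0.37 and -0.03 in IVDS2-P, and -0.68 and -0.76 in IVDS3. Both ES arrays lay above all others. It fell in IVDS3 (log2 fold change -2.14 ± 0.16 SE, 4.41-fold lower, adjusted p = 1.25e-05), IVDS2-C (-1.98 ± 0.16), IVDS2 (-1.39 ± 0.16) and IVDS2-P (-1.25 ± 0.16), with adjusted p of at most 0.00255, and each call held whichever array was left out. The centre lay below the periphery (-0.73 ± 0.16, adjusted p = 0.0245), a call that failed without IVDS2-C array 2 or IVDS2-P array 1 (adjusted p = 0.201 and 0.16). Beside it, the blood markers PTPRC, GATA1 and CD74 had log2 fold changes of -0.01, -0.26 and -0.36 in IVDS3, and LCP1 and RUNX1 had 3.12 and 0.53. The mean of the 5 blood markers was -0.12 and 0.19 in ES cells, between -0.40 and 0.56 at stage 2, and 0.60 and 0.68 in IVDS3. Their part in the fall of ITGAM was not tested. ITGB2, the partner of ITGAM, read -0.16 and -0.18 in IVDS2-C and 0.09 and 0.42 in ES cells and fell in IVDS2-C (-0.43 ± 0.13, adjusted p = 0.0329), a call that failed without ES array 2, either of the IVDS2-C arrays, either of the IVDS2-P arrays, or either of the IVDS3 arrays (adjusted p from 0.0524 up to 0.139). ITGB7 fell in IVDS3 (-0.52 ± 0.14, adjusted p = 0.0112), lost without ES array 2 or IVDS3 array 1 (adjusted p = 0.0577 and 0.079), and in IVDS2-C (-0.41 ± 0.14, adjusted p = 0.0497), lost without ES array 2, either of the IVDS2 arrays, either of the IVDS2-C arrays, or either of the IVDS3 arrays (adjusted p from 0.0693 up to 0.185). ITGAD and ITGAE were called in none of the comparisons.

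The laminin chains LAMA1, LAMB1 and LAMC1, which together form laminin-111 of the early embryo, were all higher in the colony centre than in ES cells. LAMA1 read -0.75 and -0.72 in ES cells, 0.52 and 0.31 in IVDS2, 0.79 and 0.78 in IVDS2-C, -0.33 and 0.27 in IVDS2-P, and -0.80 and -0.24 in IVDS3. Its IVDS2 and centre arrays lay above both ES arrays, whereas the IVDS3 arrays overlapped the ES arrays. LAMB1 read -0.94 and -1.34 in ES cells, 0.06 and 0.01 in IVDS2, 0.41 and 0.43 in IVDS2-C, -0.75 and -0.47 in IVDS2-P, and 0.05 and 0.46 in IVDS3. For LAMC1 the values were -0.37 and -0.29 in ES cells, 0.44 and -0.05 in IVDS2, 0.80 and 0.80 in IVDS2-C, -0.29 and -0.14 in IVDS2-P, and 0.05 and 0.40 in IVDS3. In IVDS2-C against ES cells the log2 fold changes were 1.53 ± 0.22 for LAMA1, 1.56 ± 0.18 for LAMB1 and 1.13 ± 0.18 for LAMC1, with adjusted p of at most 0.00178, whichever array was left out. In whole IVDS2 cultures LAMB1 rose (1.17 ± 0.18, adjusted p = 0.00353), LAMA1 rose (1.15 ± 0.22, adjusted p = 0.0102), lost without IVDS2 array 1 (adjusted p = 0.0622), and LAMC1 was not called (0.52 ± 0.18, adjusted p = 0.0878), though it passed without IVDS2 array 2 (adjusted p = 0.0388). In IVDS2-P none of the 3 was called with all arrays, although limma gave an unadjusted p under 0.05 for LAMA1 and LAMB1.

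Centre and periphery arrays of LAMB1 and LAMC1 did not overlap. LAMB1 was 1.03 ± 0.18 higher in the centre (adjusted p = 0.00949), lost without IVDS2-C array 2 or IVDS2-P array 1 (adjusted p = 0.061 and 0.0838), and LAMC1 1.02 ± 0.18 higher (adjusted p = 0.00902), lost without IVDS2-C array 2 or IVDS2-P array 1 (adjusted p = 0.059 and 0.0771). LAMA1 missed the threshold there (0.82 ± 0.22, adjusted p = 0.0503) and passed it without IVDS2-P array 2 or either of the IVDS3 arrays (adjusted p = 0.0319 and 0.0464). In IVDS3 the chains parted. LAMB1 stayed above ES cells (1.40 ± 0.18, adjusted p = 0.000219), LAMC1 did so by 0.56 ± 0.18 (adjusted p = 0.0266), lost without either of the ES arrays or IVDS3 array 2 (adjusted p from 0.0643 up to 0.181), and LAMA1 was not called against ES cells (0.22 ± 0.22, adjusted p = 0.412) and lay below IVDS2 (-0.93 ± 0.22, adjusted p = 0.00906), lost without IVDS2 array 1 or IVDS3 array 1 (adjusted p = 0.056 and 0.0767).

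LAMB4 had the largest rise among the laminin chains. LAMB4 read -0.08 and -0.02 in ES cells, -0.12 and -0.11 in IVDS2, 0.69 and 2.31 in IVDS2-C, -0.08 and -0.13 in IVDS2-P, and 2.32 and 3.23 in IVDS3. Only the centre and IVDS3 arrays stood above 0, and IVDS2-C array 2 was level with the lower IVDS3 array. It rose in IVDS3 (log2 fold change 2.83 ± 0.45 SE, 7.1-fold higher, adjusted p = 0.000788) and against IVDS2 (2.89 ± 0.45, adjusted p = 0.001), and all 4 of its probe sets were called higher in IVDS3, between 0.84 and 4.48. In IVDS2-C its rise (1.55 ± 0.45, adjusted p = 0.0303) was lost without either of the ES arrays or IVDS2-C array 2 (adjusted p from 0.0877 up to 0.148), and the difference between centre and periphery (1.60 ± 0.45, adjusted p = 0.0579) passed only without IVDS2-C array 1 (adjusted p = 0.00177). Beside the gap between the centre arrays, the mean of the stratified epithelial markers was 0.51 on replicate 1 and 1.10 on replicate 2, and that of the ES cell markers -0.27 and -1.30. The part of these in the result was not tested.

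Further laminin alpha chains rose late. LAMA3, the alpha chain of the laminin that anchors hemidesmosomes, read 0.92 and 0.57 in IVDS3 and -0.03 and 0.19 in ES cells (0.67 ± 0.14, adjusted p = 0.00338). That mean rests on a single probe set, which read -0.12 and -0.02 in ES cells, 0.10 and -0.15 in IVDS2, -0.23 and 0.06 in IVDS2-C, 0.02 and -0.18 in IVDS2-P, and 3.48 and 2.78 in IVDS3, a rise of 3.20 ± 0.22, whereas the other 3 probe sets were not called (between -0.38 and -0.02). LAMA4, a chain of vessel and mesenchymal basement membranes, read 0.96 and 0.61 in IVDS3 and -0.10 and 0.12 in ES cells (0.78 ± 0.16, adjusted p = 0.00297), again through 1 of its 2 probe sets (1.56 ± 0.21 against 0.00 ± 0.15). Of the 7 endothelial markers, TEK (-2.49 ± 0.22, adjusted p = 2.91e-05), KDR (-1.32 ± 0.31, adjusted p = 0.00616) and CDH5 (-0.41 ± 0.11, adjusted p = 0.0131) fell in IVDS3, and PECAM1, TIE1, VWF and ENG were not called (between -0.35 and -0.11). In that comparison 28.6% of all genes were called lower. The mean of all 7 was 0.28 and 0.50 in ES cells, between -0.12 and 0.16 at stage 2, and -0.27 and -0.41 in IVDS3. The mean of the fibroblast markers was higher in IVDS3 than on any other array. The part of both lists in the rise of LAMA4 was not tested. LAMA2, a chain of muscle laminin, read -0.08 and -0.14 in IVDS2 and 0.52 and 1.44 in ES cells and fell in IVDS2 (-1.09 ± 0.27, adjusted p = 0.0308), a call that failed without ES array 2 or either of the IVDS2 arrays (adjusted p from 0.101 up to 0.141). Its falls in IVDS2-C (-0.98 ± 0.27) and IVDS2-P (-1.08 ± 0.27) were lost without ES array 2 too (adjusted p = 0.109 and 0.145), and in IVDS3 it was not called. LAMC3 fell in IVDS3 (-0.59 ± 0.12, adjusted p = 0.00363) whichever array was left out. Its falls in IVDS2 (-0.47 ± 0.12, adjusted p = 0.0366), IVDS2-C (-0.53 ± 0.12, adjusted p = 0.0118) and IVDS2-P (-0.47 ± 0.12, adjusted p = 0.0425) failed without single arrays. The IVDS2 call failed without ES array 2, either of the IVDS2 arrays, or either of the IVDS2-P arrays (adjusted p from 0.0566 up to 0.172), the IVDS2-C call without IVDS2-C array 2 (adjusted p = 0.0857), and the IVDS2-P call without ES array 2, either of the IVDS2 arrays, either of the IVDS2-C arrays, either of the IVDS2-P arrays, or either of the IVDS3 arrays (adjusted p from 0.0541 up to 0.179). LAMB2 was called once, higher in IVDS3 than in IVDS2 (0.55 ± 0.17, adjusted p = 0.0285), and lost the call without IVDS2 array 2 or either of the IVDS3 arrays (adjusted p from 0.0994 up to 0.197).

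Among the fibrillar collagens, COL2A1 had the largest rise of any member in each stage 2 group. COL2A1, the fibril collagen of cartilage and notochord, read -1.78 and -2.76 in ES cells, -0.01 and 0.01 in IVDS2, 0.71 and 0.71 in IVDS2-C, 0.22 and 0.57 in IVDS2-P, and -2.65 and -2.02 in IVDS3. All 6 stage 2 arrays lay above the ES and IVDS3 arrays, which overlapped each other. COL2A1 rose in IVDS2 (log2 fold change 2.27 ± 0.30 SE, 4.83-fold higher, adjusted p = 0.00186), IVDS2-C (2.99 ± 0.30, adjusted p = 0.000242) and IVDS2-P (2.67 ± 0.30, adjusted p = 0.00184). In IVDS3 it was at -0.06 ± 0.30 against ES cells, not called, and fell against IVDS2 (-2.33 ± 0.30, adjusted p = 0.000387). Both probe sets moved alike, and leaving out any array kept these 4 calls.

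COL11A1, which is built into the same cartilage fibrils and sets their width, stayed above ES cells in IVDS3. COL11A1 read -1.37 and -1.46 in ES cells, -0.37 and -0.37 in IVDS2, 0.95 and 0.91 in IVDS2-C, -0.19 and 0.19 in IVDS2-P, and 0.81 and 0.59 in IVDS3. It was lowest on both ES arrays and highest in the centre and IVDS3. Its rises were 1.05 ± 0.14 in IVDS2, 2.35 ± 0.14 in IVDS2-C, 1.42 ± 0.14 in IVDS2-P and 2.12 ± 0.14 in IVDS3 (4.35-fold, adjusted p = 7.37e-06), with adjusted p of at most 0.00193. The centre stood above the periphery (0.93 ± 0.14, adjusted p = 0.00522), and IVDS3 above IVDS2 (1.07 ± 0.14, adjusted p = 0.000421). Leaving out any array kept each of these 6 calls. The other chain of that collagen, COL11A2, was called only between IVDS3 and IVDS2 (-0.47 ± 0.15, adjusted p = 0.0345), a call that failed without either of the IVDS2 arrays or either of the IVDS3 arrays (adjusted p from 0.107 up to 0.127).

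COL5A2, which joins type I collagen in fibrils, rose in all 4 groups on average but its probe sets disagreed. COL5A2 read -1.38 and -1.78 in ES cells, 0.07 and 0.08 in IVDS2, 0.51 and 0.60 in IVDS2-C, -0.74 and -0.56 in IVDS2-P, and -0.26 and -0.02 in IVDS3. Against ES cells it rose by 1.66 ± 0.15 in IVDS2, 2.14 ± 0.15 in IVDS2-C, 0.93 ± 0.15 in IVDS2-P and 1.44 ± 0.15 in IVDS3, and the centre lay above the periphery (1.21 ± 0.15, adjusted p = 0.00251). The call in IVDS2-P was lost without IVDS2-P array 2 (adjusted p = 0.0698), and the others held whichever array was left out. Of its 4 probe sets, 2 rose in IVDS3 by 4.59 ± 0.26 and 3.50 ± 0.17, and 2 fell by 1.30 ± 0.16 and 1.03 ± 0.14. The probe set with the largest rise read -3.57 and -4.46 in ES cells, 0.16 and -0.16 in IVDS2, 1.29 and 1.40 in IVDS2-C, -1.56 and -1.22 in IVDS2-P, and 0.44 and 0.70 in IVDS3. COL5A3, another type V chain, ran the other way and read 0.50 and 1.14 in ES cells, -0.03 and -0.23 in IVDS2, 0.03 and -0.16 in IVDS2-C, 0.09 and -0.27 in IVDS2-P, and 0.06 and -0.28 in IVDS3. Both ES arrays lay above all others. It fell in IVDS3 (-0.93 ± 0.22, adjusted p = 0.00754), lost without IVDS3 array 2 (adjusted p = 0.0615), and by 0.88 to 0.95 in the stage 2 groups, calls that were each lost without ES array 2 (adjusted p of 0.0876 to 0.163). COL27A1 was called in none of the comparisons.

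**Figure D4:**
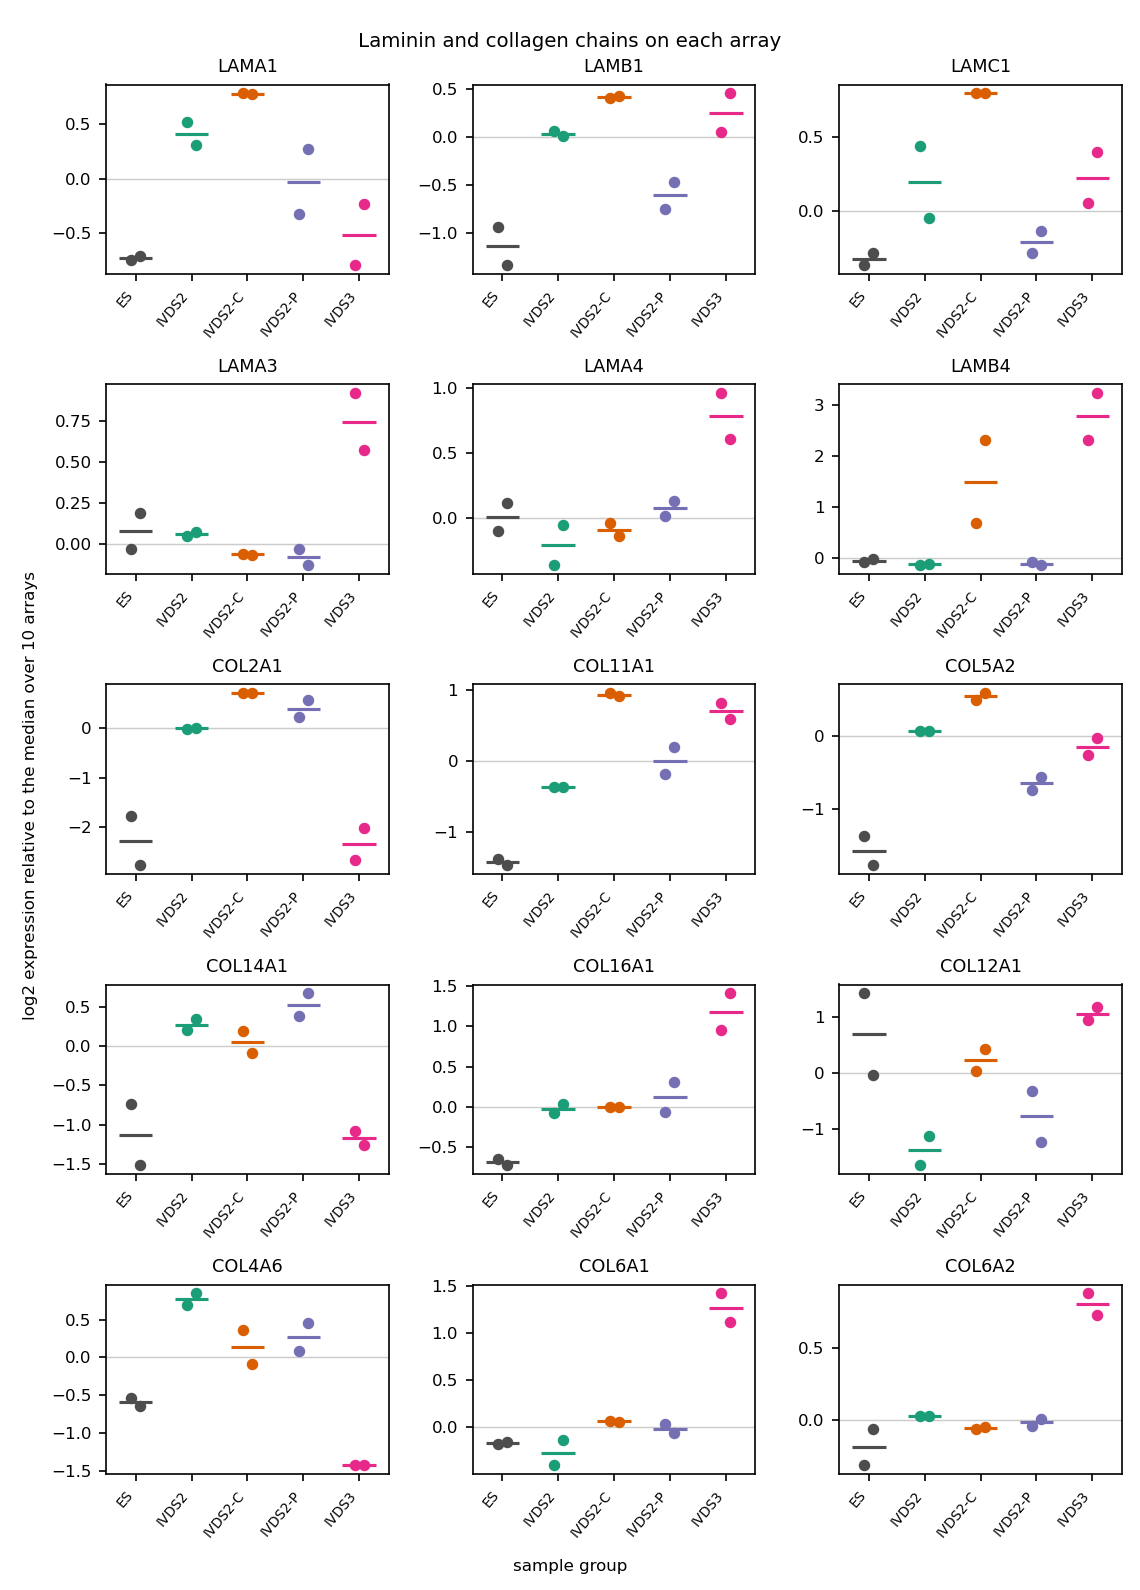
Laminin and collagen chains on each array, as log2 expression relative to the median over 10 arrays, with a panel per gene and its own scale. Points are the 2 arrays of a group and the bar is their mean. COL2A1 and COL14A1 are high on all 6 stage 2 arrays and low in ES cells and IVDS3, whereas COL6A1, COL6A2, COL16A1, LAMA3 and LAMA4 are highest in IVDS3.

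The fibril-associated collagens, which lie on the surface of fibrils, did not move together. COL14A1 read -0.74 and -1.51 in ES cells, 0.20 and 0.34 in IVDS2, 0.19 and -0.09 in IVDS2-C, 0.38 and 0.67 in IVDS2-P, and -1.08 and -1.25 in IVDS3. All 6 stage 2 arrays lay above the ES and IVDS3 arrays. It rose in IVDS2 (log2 fold change 1.39 ± 0.23 SE, 2.62-fold higher, adjusted p = 0.00525), IVDS2-C (1.18 ± 0.23) and IVDS2-P (1.65 ± 0.23) and fell in IVDS3 against IVDS2 (-1.43 ± 0.23, adjusted p = 0.00126), each whichever array was left out. Against ES cells its IVDS3 value was not called (-0.04 ± 0.23), a mean over 1 probe set that rose by 2.05 ± 0.40 and 2 that fell by 1.62 ± 0.27 and 0.54 ± 0.15. COL16A1 read -0.65 and -0.72 in ES cells, -0.08 and 0.04 in IVDS2, 0.00 and 0.00 in IVDS2-C, -0.06 and 0.31 in IVDS2-P, and 0.95 and 1.41 in IVDS3, lowest in ES cells and highest in IVDS3, where it rose (log2 fold change 1.87 ± 0.17 SE, 3.65-fold higher, adjusted p = 3.53e-05) also against IVDS2 (1.20 ± 0.17, adjusted p = 0.000615). Its smaller rises at stage 2, between 0.66 and 0.81, were each lost without ES array 2 (adjusted p of 0.0657 to 0.125).

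COL12A1, a fibril-associated collagen of dense connective tissue, read 1.42 and -0.04 in ES cells, -1.64 and -1.12 in IVDS2, 0.04 and 0.43 in IVDS2-C, -0.32 and -1.23 in IVDS2-P, and 0.94 and 1.17 in IVDS3. IVDS3 lay above IVDS2 (2.44 ± 0.45, adjusted p = 0.00251) whichever array was left out. Its fall in IVDS2 against ES cells (-2.07 ± 0.45, adjusted p = 0.0176) was lost without ES array 1 or either of the IVDS2 arrays (adjusted p from 0.0503 up to 0.0957). The type IX chains, which decorate cartilage fibrils, split. COL9A2 read 0.15 and 0.45 in IVDS2 and -0.54 and -0.43 in ES cells and rose in IVDS2 (0.79 ± 0.19, adjusted p = 0.0253), a call that failed without either of the ES arrays or IVDS2 array 2 (adjusted p from 0.0719 up to 0.163). COL9A3 rose in IVDS2-P (0.87 ± 0.19, adjusted p = 0.021), lost without ES array 2 or IVDS2-P array 2 (adjusted p = 0.0886 and 0.124), and fell in IVDS3 against IVDS2 (-0.88 ± 0.19, adjusted p = 0.00552) whichever array was left out. COL9A1 fell in IVDS2 (-0.49 ± 0.13, adjusted p = 0.0387), a call that failed without either of the ES arrays, either of the IVDS2 arrays, either of the IVDS2-C arrays, or either of the IVDS3 arrays (adjusted p from 0.0553 up to 0.198). COL21A1 rose in IVDS3 against IVDS2 (0.73 ± 0.14, adjusted p = 0.00268). COL19A1 and COL20A1 were not called in any comparison.

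Among the basement membrane collagens COL4A6 changed most, up at stage 2 and down at stage 3. COL4A6, a type IV chain of smooth muscle and some epithelial basement membranes, read -0.53 and -0.64 in ES cells, 0.69 and 0.85 in IVDS2, 0.36 and -0.08 in IVDS2-C, 0.08 and 0.45 in IVDS2-P, and -1.42 and -1.42 in IVDS3. The order of the groups was IVDS3 lowest, then ES cells, then the stage 2 arrays. COL4A6 rose in IVDS2 (log2 fold change 1.35 ± 0.17 SE, 2.55-fold higher, adjusted p = 0.00146) and fell in IVDS3 both against ES cells (-0.83 ± 0.17, adjusted p = 0.00323) and against IVDS2 (-2.18 ± 0.17, adjusted p = 2.46e-05), calls that held whichever array was left out and in both probe sets. Its rises in IVDS2-C (0.72 ± 0.17, adjusted p = 0.0132) and IVDS2-P (0.85 ± 0.17, adjusted p = 0.0161) were lost without ES array 2 (adjusted p = 0.0598 and 0.0858), and also without IVDS2-C array 1 (adjusted p = 0.0776) and IVDS2-P array 2 (adjusted p = 0.134). COL4A5, the neighbour chain in the same network, was not called in IVDS2 (0.61 ± 0.18, adjusted p = 0.054) but passed without IVDS2 array 1 (adjusted p = 0.00809), and fell in IVDS3 against IVDS2 (-0.82 ± 0.18, adjusted p = 0.00544). COL15A1 read 0.26 and 0.57 in IVDS2-P and -0.24 and -0.93 in ES cells and rose in IVDS2-P (1.00 ± 0.21, adjusted p = 0.021), a call that failed without ES array 2 or IVDS2-P array 2 (adjusted p = 0.0822 and 0.156). Only 1 of its 2 probe sets was called there (2.24), and the other one stood at -0.25. COL18A1, the precursor of endostatin, was called in IVDS2-C (0.38 ± 0.13, adjusted p = 0.0492), a call that failed without ES array 2, either of the IVDS2 arrays, either of the IVDS2-C arrays, either of the IVDS2-P arrays, or either of the IVDS3 arrays (adjusted p from 0.0607 up to 0.23). COL4A3 was called in none of the comparisons.

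Type VI collagen, which forms beaded microfibrils around mesenchymal cells, rose at stage 3. COL6A1 read -0.18 and -0.16 in ES cells, -0.40 and -0.14 in IVDS2, 0.07 and 0.06 in IVDS2-C, 0.03 and -0.06 in IVDS2-P, and 1.42 and 1.11 in IVDS3. COL6A2 read -0.31 and -0.06 in ES cells, 0.03 and 0.03 in IVDS2, -0.06 and -0.05 in IVDS2-C, -0.04 and 0.01 in IVDS2-P, and 0.88 and 0.73 in IVDS3. For both chains the IVDS3 arrays lay above all others, and no stage 2 group was called against ES cells. COL6A1 rose against ES cells (log2 fold change 1.44 ± 0.13 SE, 2.71-fold higher, adjusted p = 3.89e-05) and against IVDS2 (1.54 ± 0.13, adjusted p = 4.45e-05), and COL6A2 rose against ES cells (0.99 ± 0.12, adjusted p = 0.000143) and against IVDS2 (0.78 ± 0.12, adjusted p = 0.000895), whichever array was left out. Of the 2 probe sets of COL6A2, 1 was called in each comparison. Their changes were 0.38 and 1.60 against ES cells, and 0.34 and 1.21 against IVDS2. COL6A3 was not called (0.45 ± 0.34 against ES cells, adjusted p = 0.284), with its centre arrays at 0.33 and -0.80. In IVDS3 against ES cells, 7 of the 11 measured fibroblast markers rose and 2 fell, where 21.1% and 28.6% of all genes did. Those that rose included LUM (5.48 ± 0.21) and DCN (4.57 ± 0.16). THY1 (-1.31 ± 0.14, adjusted p = 6.84e-05) and COL1A1 (-0.74 ± 0.24, adjusted p = 0.0306) fell. The COL1A1 call failed without single arrays, and its change then lay between -0.89 and -0.59. The part of the fibroblast markers in the rise of type VI collagen was not tested.

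Of the remaining collagens, COL8A2 fell throughout and COL7A1 rose late, with 1 of its 2 probe sets called. COL8A2, a network collagen of the cornea, is read by 1 probe set and stood at 1.31 and 0.96 in ES cells, -0.29 and 0.22 in IVDS2, -0.29 and -0.13 in IVDS2-C, -0.38 and -0.43 in IVDS2-P, and 0.48 and 0.13 in IVDS3. Both ES arrays lay above all others. It fell in IVDS2 (-1.17 ± 0.20), IVDS2-C (-1.34 ± 0.20) and IVDS2-P (-1.54 ± 0.20) with adjusted p of at most 0.00545, whichever array was left out, and in IVDS3 by 0.83 ± 0.20 (adjusted p = 0.00702), lost without IVDS3 array 2 (adjusted p = 0.0607). COL7A1, which makes the anchoring fibrils under stratified epithelium, read 0.00 and -0.01 in ES cells, -0.13 and -0.02 in IVDS2, 0.23 and 0.41 in IVDS2-C, -0.51 and -0.34 in IVDS2-P, and 0.69 and 0.34 in IVDS3. It was lowest in the periphery, and the centre and IVDS3 arrays overlapped above the rest. COL7A1 was higher in the centre than in the periphery (0.75 ± 0.14, adjusted p = 0.0133), a call that failed without IVDS2-C array 2 or IVDS2-P array 1 (adjusted p = 0.116 and 0.107). It rose in IVDS3 against ES cells (0.52 ± 0.14, adjusted p = 0.0132), lost without IVDS3 array 1 (adjusted p = 0.11), and against IVDS2 (0.59 ± 0.14, adjusted p = 0.00932), lost without IVDS2 array 1 or IVDS3 array 1 (adjusted p = 0.0563 and 0.0812). Only 1 of the 2 probe sets of COL7A1 was called in each of these comparisons. Their changes were 0.07 and 0.97 in IVDS3 against ES cells, and 0.19 and 0.99 against IVDS2. In the centre against the periphery they were 0.54 and 0.97. COL25A1, a transmembrane collagen, and COL26A1 fell in IVDS3 (-0.66 ± 0.18 and -0.69 ± 0.17). The first call was lost without ES array 2 or either of the IVDS3 arrays (adjusted p from 0.052 up to 0.0742), and the second without IVDS3 array 2 (adjusted p = 0.0655). COL10A1, COL13A1 and COL28A1 were called in no comparison, which brings the members called in none of the 6 to 16.

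Of the 3 genes named after an integrin, 2 fell in IVDS3 against ES cells, where 28.6% of all genes did. ITGB3BP, which encodes the centromere protein CENP-R, read 0.03 and -0.34 in ES cells, 0.14 and -0.03 in IVDS2, 0.04 and -0.40 in IVDS2-C, 0.25 and 0.23 in IVDS2-P, and -1.99 and -1.79 in IVDS3. The IVDS3 arrays lay below all others, and the gene fell against ES cells (log2 fold change -1.74 ± 0.17 SE, 3.33-fold lower, adjusted p = 5.82e-05) and against IVDS2 (-1.95 ± 0.17, adjusted p = 5.02e-05). ITGB1BP2, the muscle protein melusin that binds the tail of ITGB1, fell in IVDS3 (-0.54 ± 0.12, adjusted p = 0.00479), and ITGB1BP1, another binder of that tail, was called in none of the comparisons. Leaving out any array kept these calls.

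The chains of known receptor and matrix assemblies can be set side by side. For the receptor of ITGA2 and ITGB1, the alpha chain rose 21.2-fold in IVDS3 while ITGB1 was not called. For the pair of ITGAV and ITGB6, the beta chain rose by 2.00 ± 0.27 and the alpha chain fell by 0.40 ± 0.10. Averaged over probe sets, ITGA6 and ITGB4 rose by similar amounts in IVDS3, 0.73 ± 0.15 and 0.77 ± 0.13, and in the centre against the periphery, 0.68 ± 0.15 and 0.67 ± 0.13. The last pair of calls was lost without IVDS2-C array 2 or either IVDS2-P array (adjusted p of 0.0734 to 0.198). The probe sets behind these means differed. In IVDS3 they ranged from 0.11 to 0.99 for ITGA6 and from -0.22 to 1.78 for ITGB4. In the centre against the periphery they ranged from 0.5 to 1.07 and from 0.15 to 1.09. The ITGA6 probe set called in the centre was not called in IVDS3. COL2A1 and COL11A1 rose together at stage 2, and in IVDS3 COL11A1 alone of the pair was called against ES cells. These values are differences between arrays, so they give no ratio of one chain to another.

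Averaging over probe sets mattered for a few genes. Of the 62 members, 29 are read by 1 probe set and 33 by several, 6 at most. Of these 33, all probe sets were called the same way for 6 in IVDS2, 6 in IVDS2-C, 4 in IVDS2-P and 7 in IVDS3 against ES cells, for 2 between centre and periphery and for 9 between IVDS3 and IVDS2. Probe sets of a gene were called in opposite directions for COL5A2, COL14A1 and COL18A1 in IVDS3, for COL5A2 and COL15A1 in IVDS2-C, for ITGA7 in IVDS2-P, and for COL5A2 in IVDS3 against IVDS2. In ITGA6, 3 probe sets rose in IVDS3, by 0.87 ± 0.20, 0.99 ± 0.19 and 0.97 ± 0.20, and the other one was not called (0.11 ± 0.18) but was the only one called higher in the centre than in the periphery (1.07 ± 0.18, adjusted p = 0.0109). In ITGB4, 2 of 4 probe sets rose in IVDS3 (1.78 ± 0.17 and 1.16 ± 0.15).

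**Figure D5:**
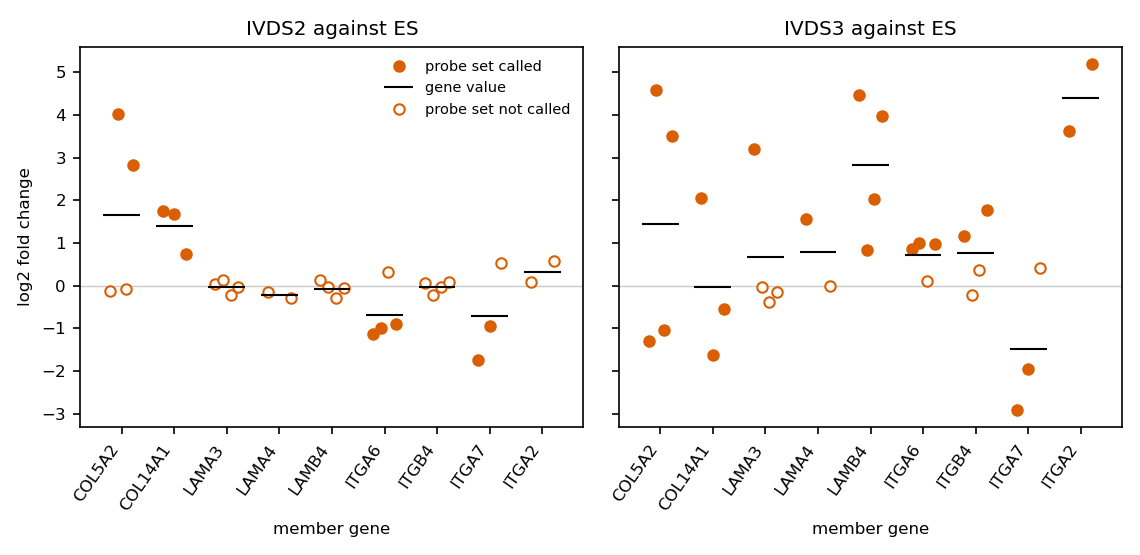
Log2 fold changes of single probe sets (points, filled where called) and of the gene value (bar) for 9 members, in IVDS2 (left) and IVDS3 (right) against ES cells. The probe sets of COL5A2 and COL14A1 lie on both sides of 0 in IVDS3, LAMA3 rests on 1 probe set, and those of LAMB4 and ITGA2 are all above 0 in IVDS3.

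Other genes of the adhesion and matrix pathways were counted in lists by function. Among 20 measured integrin ligands, 5 rose and 3 fell in IVDS2 and 9 rose and 3 fell in IVDS3. Of all genes, 6.5% rose and 6.23% fell in IVDS2, and 21.1% rose and 28.6% fell in IVDS3, which is the background for the lists that follow. The matrix protein TGFBI rose most in IVDS3 (7.41 ± 0.32, adjusted p = 8.09e-07), followed by NPNT, a ligand of the ITGA8 receptor (3.88 ± 0.13, adjusted p = 2e-07), and fibronectin, FN1 (2.72 ± 0.25, adjusted p = 3.57e-05), whereas SPP1, osteopontin, fell (-5.82 ± 0.78, adjusted p = 0.000285). All 4 calls held whichever array was left out. The median log2 fold change of the list was 0.47 in IVDS3, against -0.13 over all genes. Of 26 measured integrin adaptors and focal adhesion genes, 5 rose and 3 fell in IVDS3, no larger a share than the 21.1% and 28.6% of all genes, with a median of -0.07. The docking protein NEDD9 rose in IVDS2 (2.57 ± 0.24, adjusted p = 0.000419) and IVDS3 (1.92 ± 0.24, adjusted p = 0.000196), as did the tensin TNS3 (1.64 ± 0.15 and 1.12 ± 0.15), and CAV1, caveolin, fell in both (-1.77 ± 0.27 and -1.72 ± 0.27), whichever array was left out. Other adaptors differed among themselves. PTK2, TLN1, ILK and SRC had log2 fold changes between -0.11 and 0.11 in IVDS3, none of them called. PXN read -0.61 and -0.53 in ES cells and 0.19 and 0.04 in IVDS3, and KANK1 -0.44 and -0.44 against 0.51 and 0.68. PARVB went down, from 0.35 and 0.36 in ES cells to -0.02 and -0.11 in IVDS3. These are examples from the 26 measured.

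Of 6 measured hemidesmosome and anchoring partners, 3 rose and 2 fell in IVDS3, where 21.1% and 28.6% of all genes did. The tetraspanin CD151 (0.97 ± 0.16, adjusted p = 0.000845) and the linker PLEC (0.65 ± 0.15, adjusted p = 0.00618) rose, FREM2 of the embryonic anchoring complex rose (1.84 ± 0.34, adjusted p = 0.00195), and its partners FRAS1 (-1.14 ± 0.15) and FREM1 (-2.13 ± 0.24) fell. Among 10 other basement membrane proteins, 4 rose and 1 fell in IVDS3, with the same 21.1% and 28.6% of all genes. The dystroglycan gene DAG1, counted in this list and among the receptors, kept its call (0.41 ± 0.14, adjusted p = 0.0369) in 2 of 10 fits that left out an array. The list's rises included TINAGL1 (2.05 ± 0.29, adjusted p = 0.000353) and the crosslinker PXDN (1.31 ± 0.12, adjusted p = 3.06e-05), while NTN4 fell in IVDS2 (-1.92 ± 0.19, adjusted p = 0.000446) and rose in IVDS3 (1.25 ± 0.19, adjusted p = 0.000523). Of 6 other receptors for collagen or laminin, 5 rose in IVDS3, DAG1 among them, against 21.1% of all genes, and the median was 1.11. The others included the syndecans SDC1 (1.35 ± 0.14) and SDC2 (1.37 ± 0.20) and CD44 (1.36 ± 0.18). Apart from DAG1, the calls of the genes named here held whichever array was left out.

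Of 25 measured genes for collagen synthesis, 6 rose and 6 fell in IVDS3, close to the 21.1% and 28.6% of all genes. The prolyl hydroxylase P4HA2 rose most (3.77 ± 0.17, adjusted p = 8.33e-07), with the procollagen protease TLL1 (2.22 ± 0.12, adjusted p = 2.27e-06) and the crosslinking oxidase LOX (1.24 ± 0.13, adjusted p = 7.05e-05), and PCOLCE2, an enhancer of procollagen processing, fell (-1.74 ± 0.34, adjusted p = 0.00238). Among 21 measured matrix-degrading enzymes and inhibitors, 11 rose and 2 fell in IVDS3 (median 0.54), where 21.1% and 28.6% of all genes did. The inhibitor TIMP3 (2.50 ± 0.49, adjusted p = 0.00248), the cathepsin CTSL (2.20 ± 0.13, adjusted p = 3.58e-06) and the protease MMP10 (1.83 ± 0.29, adjusted p = 0.000722) rose, whichever array was left out. Between centre and periphery, 5 of these 21 were higher and 1 was lower in the centre, where 5.64% and 3.95% of all genes were called. The higher ones included TIMP3 (3.58 ± 0.49, adjusted p = 0.00318), ADAMTS1 (3.18 ± 0.39, adjusted p = 0.00227) and the plasminogen activator PLAU (2.55 ± 0.35, adjusted p = 0.00317), whose calls held whichever array was left out.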

How the data were processed

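Transcripts were measured on Affymetrix rhesus macaque arrays, 2 per group, and the number of arrays limits the precision. Per the submitters' processing notes the arrays were summarised with RMA, and the deposited values are taken as log2 expression because natural logs would give implausible ranges. As deposited, each probe set is centred on its median over the 10 arrays. Per the platform annotation, 22802 probe sets name 1 gene, 316 several and 21092 none, and 84 control probe sets were left out. Probe sets of a gene were averaged, and limma 3.58.1 (R 4.3.3; lmFit and eBayes, 1 term per group, all 10 arrays) was fitted to 13191 genes, with Benjamini-Hochberg adjustment and calls at 0.05. The fit was tested on simulated data. The members and lists were chosen with earlier results of these data known. The text names, per comparison, up to 8 called higher and 8 called lower members with the largest change and no overlap, a set of landmark chains, and up to 4 called genes per pathway list. Other members are named only to account for all 62. Alternatives were another probe set choice, centring of arrays, the 4 arrays compared, a replicate block, and leaving out each array.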

Additional observations from a re-analysis of the deposited data

Results flagged for a closer look

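COL4A6 and ITGA6 were called in opposite directions at the 2 stages against the same ES arrays. The difference between the stages was also called in limma. It follows from the opposite changes in the same fit and is no separate evidence. COL4A6 was higher in IVDS2 and lower in IVDS3 than in ES cells, and IVDS3 stood at -2.18 ± 0.17 (SE) against IVDS2 (adjusted p = 2.46e-05). ITGA6 was lower in IVDS2 and higher in IVDS3 than in ES cells, and IVDS3 stood at 1.41 ± 0.15 against IVDS2 (adjusted p = 0.000121). The fall of ITGA6 in IVDS2 failed without ES array 2 or IVDS2 array 2 (adjusted p = 0.0744 and 0.129).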

How the results depend on the processing

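Leaving out each array in turn gave 7 to 10 members higher and 2 to 10 lower in IVDS2 against ES cells, 10 to 15 and 3 to 12 in IVDS2-C, 3 to 10 and 2 to 10 in IVDS2-P, and 15 to 19 and 8 to 18 in IVDS3. For centre against periphery the ranges were 3 to 10 higher and 0 to 2 lower, and for IVDS3 against IVDS2 15 to 21 and 10 to 18. With only the 4 arrays compared, 4 members were lower in IVDS2, 3 in IVDS2-C and 2 in IVDS2-P, and 5 were higher and 0 lower in the centre than in the periphery. In limma that 0 came with 5 lower at an unadjusted p under 0.05, and the 0 without IVDS2-C array 2 or IVDS2-P array 1 with 2 and 4. These settings hold fewer arrays. The other alternatives moved no count by more than 1.5 times, including the choice of any called probe set, which was added after seeing the data. Of 121 called pairs of a named member and a comparison, 68 kept the call under all 14 alternatives and none changed direction. The labels do not say that a replicate number marks a shared culture. Deviations of same-numbered arrays correlated between -0.21 and 0.28, above 0.1 in 5 of 10 pairs of groups (0.22 for centre and periphery), so pairing was not taken as given. With a replicate block, 10 members were higher and 9 lower in IVDS2, 14 and 8 in IVDS2-C, 9 and 7 in IVDS2-P, 19 and 12 in IVDS3, 11 and 2 for centre against periphery, and 18 and 15 for IVDS3 against IVDS2. A filter on dim probe sets and quantile normalization were not run, since centred values hold no level.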
